A study of Mus musculus with 9 samples.

Results

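The genes described here are 40 inflammatory cytokines, chemokines, NF-kB pathway parts and NF-kB targets, followed in mouse leukaemia cells in which Brg1 was suppressed. They are a list of names drawn up when earlier results of these data were known, so the shares of members called describe the list. A member counted as measured where the array's annotation gave a probe set that single gene symbol, which held for 39 of the 40 members, out of 19937 genes measured in all. Nfkb1, which encodes an NF-kB subunit, was not analysed here. RNA was hybridised to 9 Affymetrix arrays, and the series asked which transcriptional network lies downstream of Brg1, the ATPase of the SWI/SNF chromatin remodelling complex encoded by Smarca4. The 3 hairpins against Brg1 are Brg1sh_3232, Brg1sh_3364 and Brg1sh_4935, with 2 arrays each, and the control hairpin Rluc against Renilla luciferase has 3 arrays. All groups are RN2 cells, a murine acute myeloid leukaemia line that carries the MLL-AF9 fusion and NrasG12D, transduced with the hairpin in the TRMPV vector and given 1 ug/ml doxycycline for 96 h to switch the hairpin on. The control arrays alone carry the further term TtTMPV in their cell line name, so any difference that this term stands for cannot be told apart from the hairpin. A single line in culture was studied. Whether the replicates were grown separately is not labelled, so each p-value reflects the spread of these samples alone, and that spread may be technical.

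NF-kB is a family of dimeric transcription factors that IkB proteins hold in the cytoplasm. Signals through receptors for tumour necrosis factor, interleukins of the IL-1 family or microbial products lead to phosphorylation and destruction of IkB, and the freed dimers then switch on genes for cytokines, chemokines and adhesion molecules. Among the targets are the genes of the pathway's own brakes, which resynthesise IkB, remove ubiquitin from signalling proteins or degrade cytokine messenger RNA, and myeloid cells are a main source of these products.

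NF-kB dimers bind a short, nearly palindromic DNA element. It was searched for on both strands of the RefSeq promoters (assembly GRCm38.p6), each 250 bases before to 50 bases after a gene's start, and 30 of the 40 members had an entry. The NF-kB consensus was present in the promoters of 12 of these 30 members (40%), against 5.14% of the 27025 genes with an entry. The members were named as NF-kB pathway parts and targets, so a higher share is built into the list. It is not a result of these arrays. It stood in 7 of the 19 members with an entry that rose in the mean of the 3 hairpins and in 5 of the 11 that did not. The 6 promoters below were chosen from the 12 with a match, to set members that rose beside members that did not. Nfkbia, Nfkbie, Tnip1 and Cxcl10 rose in the mean of the hairpins, and Cxcl2 and Il6 were not called. Each sequence covers the 200 bases before the start used in the promoter table, 5′ to 3′ on the gene's strand, and capitals mark every match to the consensus on either strand.
Nfkbia (chr12:55492648-55492847, minus strand): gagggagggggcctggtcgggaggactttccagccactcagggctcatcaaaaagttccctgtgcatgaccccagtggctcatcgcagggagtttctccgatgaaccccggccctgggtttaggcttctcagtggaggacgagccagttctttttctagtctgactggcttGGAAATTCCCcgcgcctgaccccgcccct
Nfkbie (chr17:45555500-45555699, plus strand): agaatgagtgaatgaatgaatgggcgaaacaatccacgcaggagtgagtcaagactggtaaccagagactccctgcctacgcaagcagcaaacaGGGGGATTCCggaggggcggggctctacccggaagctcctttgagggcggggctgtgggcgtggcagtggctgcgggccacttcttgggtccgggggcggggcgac
Tnip1 (chr11:54962941-54963140, minus strand): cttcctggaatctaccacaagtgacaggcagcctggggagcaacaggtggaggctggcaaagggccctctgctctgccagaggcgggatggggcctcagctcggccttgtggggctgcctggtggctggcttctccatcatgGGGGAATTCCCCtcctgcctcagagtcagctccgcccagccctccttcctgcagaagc
Cxcl10 (chr5:92348890-92349089, minus strand): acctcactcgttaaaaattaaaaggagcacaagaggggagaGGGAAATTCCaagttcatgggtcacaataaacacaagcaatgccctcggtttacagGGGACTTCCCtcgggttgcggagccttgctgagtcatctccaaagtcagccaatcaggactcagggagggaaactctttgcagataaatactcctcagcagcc
Cxcl2 (chr5:90903699-90903898, plus strand): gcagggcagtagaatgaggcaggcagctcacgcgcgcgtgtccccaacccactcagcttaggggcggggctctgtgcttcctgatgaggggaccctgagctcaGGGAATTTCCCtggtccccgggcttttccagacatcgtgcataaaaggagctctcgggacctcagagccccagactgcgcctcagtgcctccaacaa
Il6 (chr5:30012914-30013113, plus strand): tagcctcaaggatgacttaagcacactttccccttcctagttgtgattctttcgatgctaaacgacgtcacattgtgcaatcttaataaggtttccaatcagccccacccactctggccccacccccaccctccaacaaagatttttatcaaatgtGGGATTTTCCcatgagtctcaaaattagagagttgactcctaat
Counted from the gene's start, the matches begin at -29 in Nfkbia, -106 in Nfkbie, -58 in Tnip1, -159 and -103 in Cxcl10, -97 in Cxcl2 and -44 in Il6. The 4 promoters of members that rose and the 2 of members that were not called hold the element because they were chosen for it. A match describes letters in a window, and binding was not measured.

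The values are log2 expression after RMA, a method that corrects background, brings the arrays to 1 distribution and merges the probes of a set, and a level cannot be compared between genes. Array medians lay between 7.39 and 7.49, and the number of arrays limits the precision. Smarca4 itself stood at 48.2% to 50.3% of the Rluc level with the 3 hairpins on this scale, and the hairpins were not told apart in it (F test among hairpins, limma adjusted p = 0.802). Libraries also differed in the Y-linked gene Eif2s3y, which had log2 levels of 6.02 and 6.40 with Brg1sh_3232, 9.30 and 9.27 with Brg1sh_3364 and 7.90 and 7.90 with Brg1sh_4935, against 4.78, 4.88 and 5.08 with Rluc. Kdm5d and Uty, also Y-linked, were higher by 0.63 and 0.51 in the mean of the hairpins, so these genes separated the hairpin arrays from the Rluc arrays and their part in the results below was not tested. Markers of T, B and erythroid cells gave 0 rises and 1 fall among 13 measured genes. Of 7 fibroblast and endothelium genes 1 rose and 0 fell in the mean of the hairpins, where 13.3% of all genes rose. Of these, Pdgfrb averaged 10.45, 9.55 and 10.03 with Brg1sh_3232, Brg1sh_3364 and Brg1sh_4935, against 9.62 with Rluc.

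Across the members the knockdown arrays stood higher far more often than lower. In the mean of the 3 hairpins against Rluc, 22 of the 39 measured members rose and 2 fell at an adjusted p below 0.05, which is 61.5% called. Among all 19937 genes 28.3% were called, 13.3% as higher and 15.0% as lower, so the share of members that rose was 56.4% where the share over all genes was 13.3%. The median log2 change was 0.23 over the members and -0.00 over all genes. All 6 knockdown arrays lay above all 3 Rluc arrays for 18 members and below them for 2, against 10.7% and 12.1% of all genes. Of the 5635 called genes 47.1% were higher. When each array was centred on its median, 5971 genes were called, of which 36.5% were higher, and 21 members rose and 2 fell. These are shares of called genes and not of all genes, so the 21 rises cannot be read against them directly. With the hairpin treated as a random block, 14 members rose and 2 fell. The share of all genes called in that setting is not given here, so these counts cannot be read against it.

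**Figure D1:**
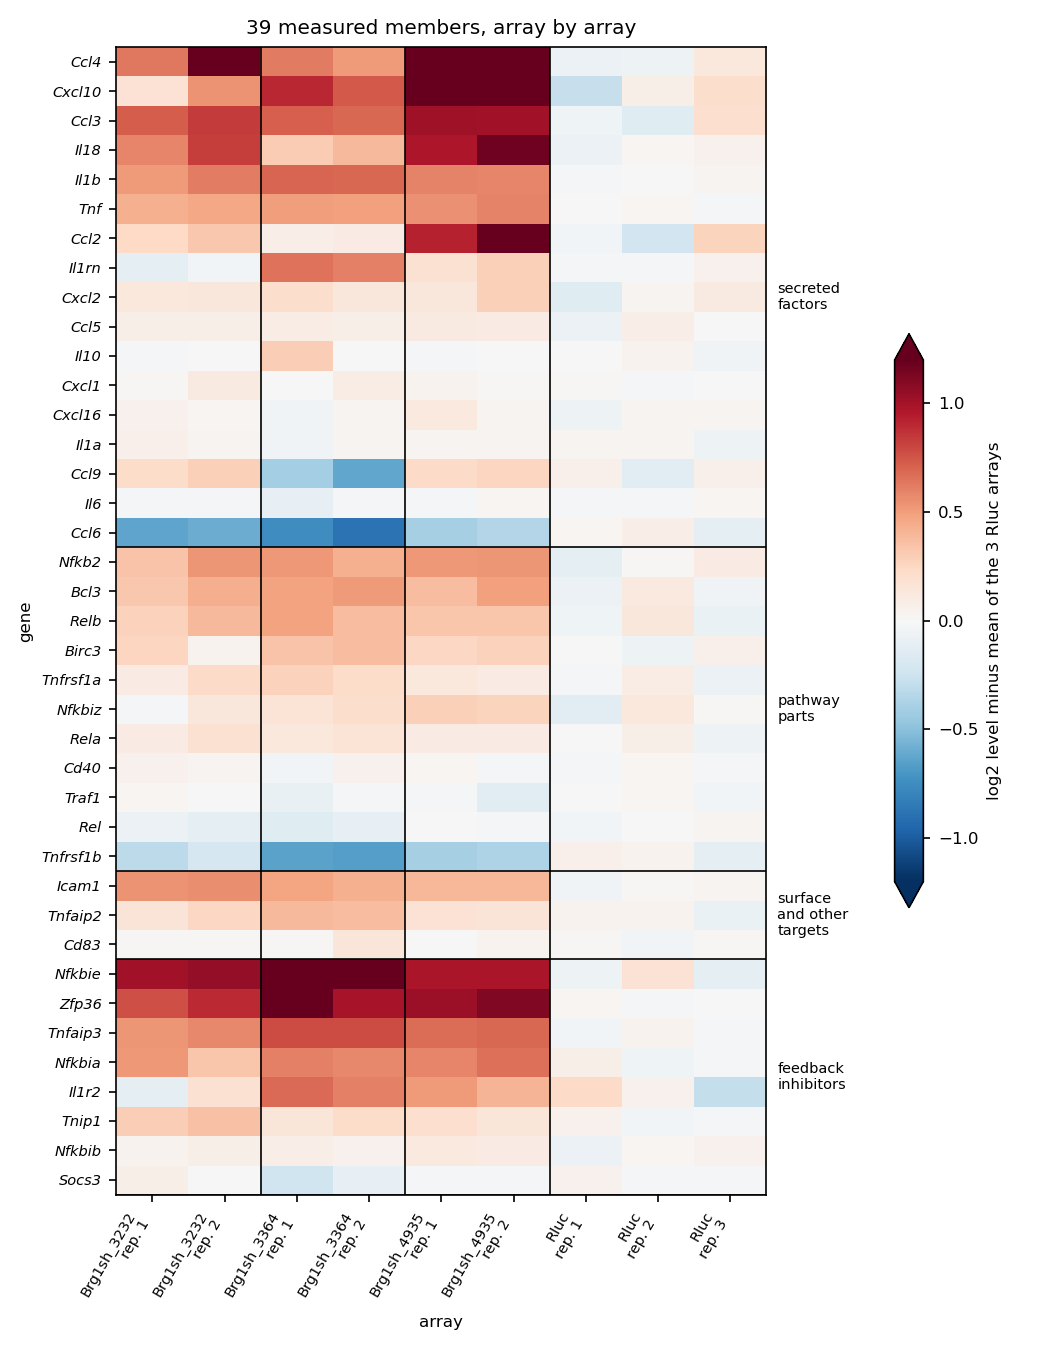
Each row is 1 of the 39 measured members, grouped by role, and each column 1 array, with knockdown arrays on the left and Rluc arrays on the right. Colour gives the log2 level minus the mean of the 3 Rluc arrays, and colours saturate at the ends of the bar. Red fills most knockdown columns in the upper part of the secreted block and the feedback block, while Ccl6 and Tnfrsf1b are blue in all 6.

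Each hairpin was also set against the same 3 Rluc arrays, so the 3 comparisons share their controls. With Brg1sh_3232, 15 members rose and 2 fell, where 20.8% of all genes were called, 9.59% as higher and 11.3% as lower. With Brg1sh_3364, 20 members rose and 3 fell, where 25.7% of all genes were called, 13.6% as higher and 12.2% as lower. With Brg1sh_4935, 20 members rose and 2 fell, where 22.1% of all genes were called, 9.79% as higher and 12.3% as lower. Tnf, Il1b, Il18, Ccl3, Ccl4, Nfkb2, Relb, Bcl3, Icam1, Nfkbia, Nfkbie, Tnfaip3, Tnip1 and Zfp36 rose with each of the 3 hairpins, and Ccl6 and Tnfrsf1b fell with each. Another 8 members rose with 1 or 2 hairpins, Ccl9 fell with 1, and 0 members rose with one hairpin and fell with another. The shares of all genes with these patterns are not given, and shared controls make agreement among hairpins likelier for any gene. These counts therefore do not show an agreement particular to the members. The 2 falls with Brg1sh_3232 became 1 without Brg1sh_3232 replicate 1 or without Rluc replicate 2.

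Of the 17 secreted factors, 8 rose and 1 fell in the mean of the hairpins, with a median log2 change of 0.17. The cytokines Tnf, Il1b and Il18 and the chemokines Ccl3, Ccl4, Cxcl10 and Ccl2 rose, as did Il1rn, and the chemokine Ccl6 fell. Tnf encodes tumour necrosis factor, which both activates NF-kB and is induced by it. In log2 level it stood at 11.75 and 11.78 with Brg1sh_3232, 11.82 and 11.81 with Brg1sh_3364 and 11.86 and 11.91 with Brg1sh_4935, against 11.31, 11.34 and 11.29 with Rluc. Every knockdown array lay above every Rluc array, the 3 hairpins lay within a narrow band, and Tnf rose by 0.50 in log2 level (SE 0.03, adjusted p = 8.87e-06). Il1b encodes the pro-inflammatory cytokine IL-1 beta, made as a precursor that a caspase cleaves. It had 7.56 and 7.65 with Brg1sh_3232, 7.74 and 7.73 with Brg1sh_3364 and 7.64 and 7.62 with Brg1sh_4935, against 7.02, 7.03 and 7.07 with Rluc. The groups did not overlap, and Il1b rose by 0.62 in log2 level (SE 0.04, adjusted p = 4.73e-06). Il18 encodes a cytokine of the same family that induces interferon gamma. Its levels were 6.21 and 6.46 with Brg1sh_3232, 5.94 and 6.02 with Brg1sh_3364 and 6.60 and 6.80 with Brg1sh_4935, against 5.56, 5.65 and 5.68 with Rluc. The arrays of Brg1sh_4935 were the highest and those of Brg1sh_3364 the lowest of the knockdown arrays, all above Rluc, and the rise in the mean was 0.71 in log2 level (SE 0.07, adjusted p = 6.87e-05). With Brg1sh_3364 alone Il18 rose by 0.35 (adjusted p = 0.0159), a call lost without replicate 1 (0.058) or replicate 2 (0.117) of that hairpin.

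Ccl3 and Ccl4 encode the macrophage inflammatory proteins, chemokines that attract monocytes and T cells. Ccl3 had log2 levels of 13.58 and 13.70 with Brg1sh_3232, 13.58 and 13.55 with Brg1sh_3364 and 13.87 and 13.86 with Brg1sh_4935, against 12.80, 12.71 and 13.06 with Rluc. Its knockdown arrays all lay above its Rluc arrays, and it rose by 0.83 in log2 level (SE 0.07, adjusted p = 3.84e-05), which is 1.78-fold. Ccl4 had 8.26 and 8.93 with Brg1sh_3232, 8.26 and 8.14 with Brg1sh_3364 and 9.24 and 9.23 with Brg1sh_4935, against 7.56, 7.57 and 7.76 with Rluc. The groups did not overlap, but the knockdown arrays spread widely, with both Brg1sh_4935 arrays at the top and the 2 arrays of Brg1sh_3232 far apart. With Brg1sh_3232 its change was 0.96, and 0.63 without replicate 2 of that hairpin. In the mean Ccl4 rose by 1.05 in log2 level (SE 0.12, adjusted p = 0.00025), or 2.07-fold. Its rise with Brg1sh_3364, 0.57 (adjusted p = 0.0282), lost its call without any one of Brg1sh_3364 replicate 1 (0.172) or 2 (0.0963), Brg1sh_4935 replicate 1 or 2 (0.0565 each), Rluc replicate 1 (0.0751) or 2 (0.079).

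Cxcl10 encodes a chemokine for activated T cells whose gene is induced by interferons as well as by NF-kB. It stood at 8.55 and 8.91 with Brg1sh_3232, 9.28 and 9.11 with Brg1sh_3364 and 9.64 and 9.84 with Brg1sh_4935, against 8.09, 8.45 and 8.58 with Rluc. Brg1sh_4935 was highest, and 1 array of Brg1sh_3232 lay below an Rluc array, so the groups overlapped. The rise in the mean was 0.85 in log2 level (SE 0.12, adjusted p = 0.000629), and with the 3 hairpin means as replicates its adjusted p was 0.0815. Of 15 measured genes of the interferon response 12 rose and 1 fell in the mean, where 13.3% of all genes rose and 15.0% fell. Their summed linear level was 9018 to 11113 in knockdown arrays and 6864 to 7332 in Rluc arrays. Between hairpins they did not all follow Cxcl10, which averaged 9.19 with Brg1sh_3364 and 8.73 with Brg1sh_3232. Of the 15 genes, 5 were higher and 10 lower with Brg1sh_3364 than with Brg1sh_3232, with 1 called in each direction. Their part in the Cxcl10 value was not tested.

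Ccl2 encodes the main monocyte attractant. By array its log2 levels were 7.35 and 7.43 with Brg1sh_3232, 7.19 and 7.20 with Brg1sh_3364 and 8.03 and 8.30 with Brg1sh_4935, against 7.08, 6.88 and 7.37 with Rluc. The 2 arrays of Brg1sh_4935 were high, while the other 4 knockdown arrays lay within or just above the range of the Rluc arrays. Ccl2 rose by 0.48 in log2 level (SE 0.10, adjusted p = 0.00645) in the mean and by 1.06 (adjusted p = 0.000479) with Brg1sh_4935, against changes of 0.28 (adjusted p = 0.182) with Brg1sh_3232 and 0.09 (adjusted p = 0.706) with Brg1sh_3364. Without Brg1sh_4935 the mean was 0.18 (adjusted p = 0.292). Il1rn encodes the interleukin receptor antagonist, a secreted protein that blocks the IL-1 receptor. It had 11.23 and 11.31 with Brg1sh_3232, 11.997 and 11.95 with Brg1sh_3364 and 11.53 and 11.63 with Brg1sh_4935, against 11.32, 11.32 and 11.40 with Rluc. Only Brg1sh_3364 and Brg1sh_4935 lay above the Rluc arrays, and Brg1sh_3232 lay just below them. Il1rn rose by 0.26 in the mean (SE 0.04, adjusted p = 0.00128), by 0.63 with Brg1sh_3364 (adjusted p = 5.05e-05) and by 0.24 with Brg1sh_4935 (adjusted p = 0.0117, and 0.113 without Brg1sh_4935 replicate 2). Without Brg1sh_3364 the mean was 0.08 (adjusted p = 0.291).

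The CC chemokines Ccl6 and Ccl9 were called as higher with no single hairpin, where Ccl3 and Ccl4 rose with each. Ccl6 had 9.86 and 9.91 with Brg1sh_3232, 9.75 and 9.61 with Brg1sh_3364 and 10.09 and 10.14 with Brg1sh_4935, against 10.53, 10.58 and 10.39 with Rluc. Every knockdown array lay below every Rluc array, and Ccl6 fell by 0.60 in log2 level (SE 0.05, adjusted p = 4.22e-05), which is 1.52-fold lower. Ccl9 had 12.85 and 12.91 with Brg1sh_3232, 12.22 and 12.01 with Brg1sh_3364 and 12.85 and 12.88 with Brg1sh_4935, against 12.69, 12.50 and 12.69 with Rluc. Both Brg1sh_3364 arrays lay below the Rluc arrays, while the other 4 knockdown arrays lay above them. Ccl9 fell by 0.51 with Brg1sh_3364 (SE 0.08, adjusted p = 0.00139), and its changes were 0.25 (adjusted p = 0.0528) with Brg1sh_3232 and 0.24 (adjusted p = 0.0602) with Brg1sh_4935. In the mean these gave -0.01 (adjusted p = 0.961), and without Brg1sh_3364 the mean was 0.25 (adjusted p = 0.0178).

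Il6, Il1a, Il10, Ccl5, Cxcl1, Cxcl2 and Cxcl16 were called in none of the 4 comparisons with Rluc. Il6, a cytokine of the acute phase response, had a change of -0.02 in the mean (95% interval -0.10 to 0.06), and 1 deposited log2 level recurred in 6 of its 9 arrays. Il1a had 0.02 (-0.06 to 0.11), and 1 log2 level likewise recurred in 6 of its 9 arrays. Cxcl2, a neutrophil attractant, came nearest to the threshold, with 0.17 (0.04 to 0.31, adjusted p = 0.0644) and all 6 knockdown arrays above the Rluc arrays. No detection calls were used, so whether a member's probe set was above background is not known for any member, called or not.

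**Figure D2:**
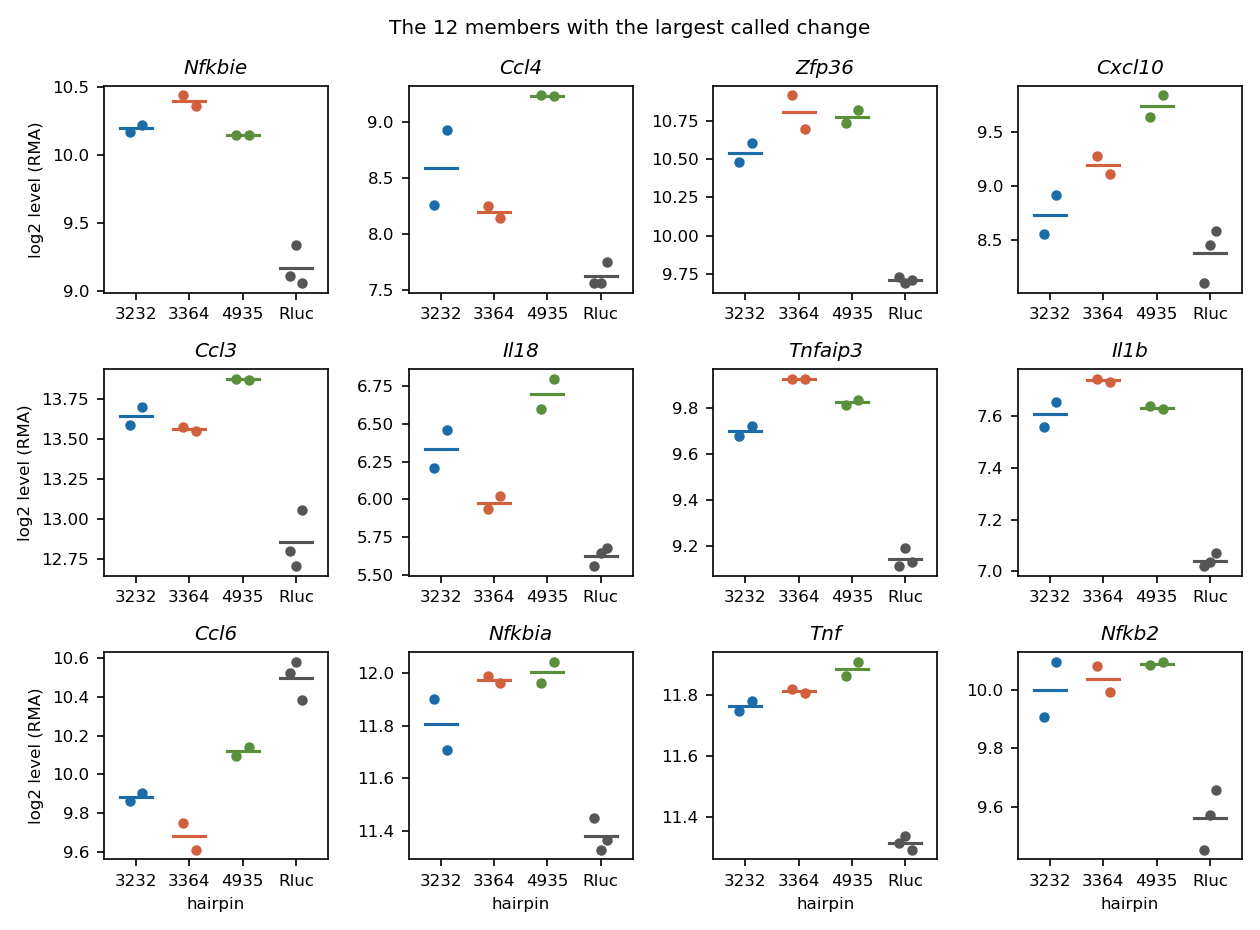
Log2 level (RMA) in each array for the 12 members with the largest called change in the mean of the hairpins, with the 3 hairpins at left and Rluc at right of each panel, points for arrays and bars for group means. Vertical scales differ between panels and do not start at 0. Ccl6 is the panel in which the knockdown arrays lie below Rluc, and Cxcl10 the panel in which they overlap it.

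Among the receptors and adaptors, Tnfrsf1a and Birc3 rose and Tnfrsf1b fell. The genes Tnfrsf1a and Tnfrsf1b encode the receptors for tumour necrosis factor, the first on most cells and the second mainly on blood cells. Tnfrsf1b stood at 11.01 and 11.12 with Brg1sh_3232, 10.68 and 10.66 with Brg1sh_3364 and 10.92 and 10.96 with Brg1sh_4935, against 11.39, 11.37 and 11.22 with Rluc. All 6 knockdown arrays lay below Rluc, lowest with Brg1sh_3364, and Tnfrsf1b fell by 0.43 in log2 level (SE 0.05, adjusted p = 0.000181). With Brg1sh_3232 it fell by 0.26 (adjusted p = 0.0184), a call lost without Brg1sh_3232 replicate 1 (0.126) or Rluc replicate 2 (0.0564). Tnfrsf1a had 11.93 and 12.06 with Brg1sh_3232, 12.10 and 12.05 with Brg1sh_3364 and 11.96 and 11.93 with Brg1sh_4935, against 11.81, 11.92 and 11.76 with Rluc. The rise of 0.18 in its mean (SE 0.05, adjusted p = 0.0215) was small, and its call was lost without Brg1sh_3364 replicate 1 (0.0542), Brg1sh_4935 replicate 1 (0.055), Rluc replicate 1 (0.0705) or Rluc replicate 3 (0.0928). Of the single hairpins, Tnfrsf1a was called with Brg1sh_3364 only. Without Brg1sh_3364 its mean change was 0.14 (limma adjusted p = 0.111). Birc3, a ubiquitin ligase recruited to these receptors, rose by 0.26 (SE 0.05, adjusted p = 0.00521, and 0.0797 where the hairpin was a random block). Birc3 was not called with Brg1sh_3232 (limma adjusted p = 0.167). Its call with Brg1sh_4935 (0.0211) was lost without Rluc replicate 2 (0.066). Cd40 and Traf1 had changes of 0.02 and -0.04 and were called in no comparison with Rluc.

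Of the 4 measured NF-kB subunits, those of the non-canonical pathway moved most. Nfkb2 encodes the precursor of the p52 subunit, processed in the non-canonical branch. Its log2 levels were 9.91 and 10.09 with Brg1sh_3232, 10.08 and 9.99 with Brg1sh_3364 and 10.08 and 10.09 with Brg1sh_4935, against 9.46, 9.58 and 9.66 with Rluc. The groups did not overlap, and Nfkb2 rose by 0.48 in log2 level (SE 0.06, adjusted p = 0.000278). Relb encodes the usual partner of p52. It had 8.03 and 8.14 with Brg1sh_3232, 8.24 and 8.13 with Brg1sh_3364 and 8.08 and 8.08 with Brg1sh_4935, against 7.70, 7.88 and 7.67 with Rluc. All knockdown arrays were again above Rluc, and Relb rose by 0.37 in log2 level (SE 0.06, adjusted p = 0.0011). The Relb call with Brg1sh_3232 was lost without replicate 2 of that hairpin (0.0945), and that with Brg1sh_4935 without replicate 1 (0.0719) or 2 (0.0705). Rela, the subunit of the canonical dimer, had a change of 0.13 (SE 0.04, adjusted p = 0.0421), was called with no single hairpin, and lost its call when any array other than Brg1sh_3232 replicate 1 or Rluc replicate 2 was left out (0.0646 to 0.162). Rel, the third subunit with a transactivation domain, had -0.07 (95% interval -0.15 to 0.01). The nuclear IkB protein gene Bcl3, whose product binds p52 and p50 dimers on DNA, rose by 0.44 in log2 level (SE 0.05, adjusted p = 0.000288), with levels of 9.95 and 10.06 with Brg1sh_3232, 10.11 and 10.13 with Brg1sh_3364 and 10.000 and 10.12 with Brg1sh_4935, against 9.55, 9.74 and 9.59 with Rluc. Its call with Brg1sh_3232 was lost without replicate 2 of that hairpin (0.0501). Nfkbiz, another nuclear IkB protein gene, had a change of 0.18 (adjusted p = 0.0547) and rose by 0.28 with Brg1sh_4935 (adjusted p = 0.0293). The hairpins were not told apart in Nfkbiz by the F test, and the Brg1sh_4935 call was lost without Brg1sh_3364 replicate 1 or 2 (0.0525 each), Brg1sh_4935 replicate 1 (0.158) or 2 (0.128), or Rluc replicate 1 (0.0579) or 3 (0.0588).

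The surface and other targets Icam1 and Tnfaip2 rose, and Cd83 was not called. Icam1 encodes the adhesion molecule that leukocyte integrins bind. In log2 level it stood at 10.39 and 10.41 with Brg1sh_3232, 10.33 and 10.29 with Brg1sh_3364 and 10.26 and 10.26 with Brg1sh_4935, against 9.81, 9.87 and 9.89 with Rluc. The groups did not overlap, and Icam1 rose by 0.47 in log2 level (SE 0.03, adjusted p = 1.71e-05). Tnfaip2, a target of tumour necrosis factor, rose by 0.25 in log2 level (SE 0.04, adjusted p = 0.00199), and the call had an adjusted p of 0.0631 with hairpin means as replicates. With Brg1sh_3232 its rise of 0.20 (adjusted p = 0.03) lost its call without Brg1sh_3232 replicate 2 (0.179), Brg1sh_4935 replicate 1 or 2 (0.0523 each) or Rluc replicate 3 (0.0672). Cd83, a marker of mature dendritic cells, had a change of 0.04 (95% interval -0.05 to 0.13).

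With all secreted factors taken as 1 role, the feedback inhibitors had the highest median change of the 4 roles, while the 5 secreted cytokines taken alone had a median of 0.50. Of 8 feedback inhibitors measured, 6 rose and 0 fell in the mean of the hairpins, with a median of 0.46 log2, and 5, 6 and 6 rose with Brg1sh_3232, Brg1sh_3364 and Brg1sh_4935. Nfkbie encodes IkB epsilon, one of the IkB proteins that NF-kB induces. By array its log2 levels were 10.17 and 10.22 with Brg1sh_3232, 10.44 and 10.36 with Brg1sh_3364 and 10.14 and 10.14 with Brg1sh_4935, against 9.10, 9.34 and 9.05 with Rluc. The lowest knockdown array lay well above the highest Rluc array, and Nfkbie rose by 1.08 in log2 level (SE 0.06, adjusted p = 3.84e-06), which is 2.11-fold. Nfkbia encodes IkB alpha, the inhibitor that is destroyed and remade after each signal. It had 11.90 and 11.71 with Brg1sh_3232, 11.99 and 11.96 with Brg1sh_3364 and 11.96 and 12.04 with Brg1sh_4935, against 11.45, 11.33 and 11.37 with Rluc. All knockdown arrays lay above Rluc, and Nfkbia rose by 0.55 in log2 level (SE 0.05, adjusted p = 6.52e-05). Nfkbib, the gene of IkB beta, had a change of 0.08 (95% interval -0.01 to 0.16) and was called in no comparison with Rluc.

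Zfp36 encodes tristetraprolin, which binds AU-rich elements in cytokine messenger RNA and speeds its decay. Its log2 levels were 10.48 and 10.61 with Brg1sh_3232, 10.92 and 10.70 with Brg1sh_3364 and 10.74 and 10.82 with Brg1sh_4935, against 9.73, 9.69 and 9.71 with Rluc. The 3 Rluc arrays lay close together, far below the knockdown arrays, and Zfp36 rose by 1.00 in log2 level (SE 0.05, adjusted p = 3.34e-06), or 2-fold. Tnfaip3 encodes a ubiquitin-editing enzyme that shuts off signalling to NF-kB. It stood at 9.68 and 9.72 with Brg1sh_3232, 9.93 and 9.92 with Brg1sh_3364 and 9.81 and 9.83 with Brg1sh_4935, against 9.11, 9.19 and 9.13 with Rluc. Groups did not overlap, and the rise was 0.67 in log2 level (SE 0.03, adjusted p = 2.54e-06). Tnip1, whose product binds the Tnfaip3 protein, had 10.07 and 10.13 with Brg1sh_3232, 9.92 and 9.99 with Brg1sh_3364 and 9.97 and 9.92 with Brg1sh_4935, against 9.82, 9.74 and 9.76 with Rluc. Its knockdown arrays lay above Rluc by a smaller margin, highest with Brg1sh_3232, and Tnip1 rose by 0.23 in log2 level (SE 0.04, adjusted p = 0.00179). The Tnip1 call with Brg1sh_3364 was lost without Brg1sh_3364 replicate 2 (0.143), Rluc replicate 2 (0.0629) or Rluc replicate 3 (0.0526). With Brg1sh_4935 it was lost without replicate 1 (0.207) or 2 (0.0888) of that hairpin, Rluc replicate 2 (0.0973) or Rluc replicate 3 (0.0791).

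Il1r2 encodes the decoy receptor that binds IL-1 without signalling. In log2 level it stood at 7.93 and 8.21 with Brg1sh_3232, 8.72 and 8.64 with Brg1sh_3364 and 8.54 and 8.44 with Brg1sh_4935, against 8.27, 8.09 and 7.75 with Rluc. The Rluc arrays themselves spread over a wide range, the Brg1sh_3232 arrays lay among them, and only Brg1sh_3364 and Brg1sh_4935 lay above. Il1r2 rose by 0.38 in the mean (SE 0.11, adjusted p = 0.0264), a call kept without Brg1sh_3232 replicate 1 or Rluc replicate 1 and lost without any other single array (0.055 to 0.0799). Without Rluc replicate 3 the mean change was 0.24 (adjusted p = 0.0799), and without Brg1sh_3364 it was 0.25 (adjusted p = 0.23). With Brg1sh_3364 the rise was 0.64 (adjusted p = 0.00813, and 0.0721 without Brg1sh_3364 replicate 1). With Brg1sh_4935 it was 0.46 (adjusted p = 0.0438), lost without any single array except Rluc replicate 1 (0.0532 to 0.24). Socs3, which limits cytokine receptor signalling, had -0.05 (95% interval -0.15 to 0.04), and its second probe set had 0.02.

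The hairpins were then set against each other, which tests their differences directly. The F test among the 3 hairpins called 9 of the 39 members (23.1%), where it called 10.5% of all genes. Of the 17 secreted factors 7 were among them (Il18, Il1rn, Ccl2, Ccl4, Ccl6, Ccl9 and Cxcl10), and of the 22 other members 2, Tnfrsf1b and Tnfaip3. Tnf, Il1b and Ccl3, which rose with each hairpin, were not called by it. The count was 4 without Brg1sh_3364 replicate 1 or 2 or Brg1sh_4935 replicate 2, and 5 without Brg1sh_4935 replicate 1.

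Between Brg1sh_4935 and Brg1sh_3364, 7 members were called, where 7.61% of all genes were. Ccl4 averaged 9.23 ± 0.01 with Brg1sh_4935 and 8.20 ± 0.08 with Brg1sh_3364 (SD, n = 2 each), a difference of 1.04 (SE 0.17, limma adjusted p = 0.00825). Ccl2 averaged 8.17 ± 0.19 with Brg1sh_4935 and 7.199 ± 0.008 with Brg1sh_3364, differing by 0.97 (limma adjusted p = 0.00449). Ccl2 and Ccl4 were thus higher with Brg1sh_4935, and so were Ccl9 by 0.75, Il18 by 0.72, Ccl6 by 0.44 and Tnfrsf1b by 0.27. Il1rn was lower with Brg1sh_4935, by -0.39. Leaving out either array of Brg1sh_4935 reduced the 7 to 3, and only Il18 and Ccl9 kept the call without each of the 9 arrays. Ccl2 lost it without Brg1sh_4935 replicate 2 (0.0581), Il1rn without Brg1sh_4935 replicate 1 (0.0522), and Ccl4 without any array of Brg1sh_3364 or Brg1sh_4935 (0.0592 to 0.0754). Ccl6 lost it without Brg1sh_3364 replicate 2 (0.0695), Brg1sh_4935 replicate 1 (0.0588) or 2 (0.0799), and Tnfrsf1b without any array except Rluc replicate 1 or 3 (0.0555 to 0.21). Marker lists moved with this comparison too. Of 17 macrophage and monocyte genes 9 were higher with Brg1sh_4935 and none was lower, with summed linear levels of 43730 to 44513 with Brg1sh_4935 and 36278 to 36799 with Brg1sh_3364. Of 15 interferon response genes 5 were higher and 1 was lower, and of 11 neutrophil genes 2 were lower and none was higher. The part of these lists in the member differences was not tested.

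Between Brg1sh_3364 and Brg1sh_3232, 6 members were called, where 9.66% of all genes were. Il1rn averaged 11.97 ± 0.03 with Brg1sh_3364 and 11.27 ± 0.06 with Brg1sh_3232 (SD, n = 2 each), a difference of 0.71 (limma adjusted p = 0.00031). Ccl9 was lower with Brg1sh_3364 by -0.76 (adjusted p = 0.00118), and these 2 calls were kept without each of the 9 arrays. Tnfrsf1b was lower by -0.40 and Il18 by -0.36, and Il1r2 was higher by 0.61 and Tnfaip3 by 0.23. The 6 calls became 2 without Brg1sh_3232 replicate 2 or Brg1sh_3364 replicate 1. Tnfrsf1b lost its call without Brg1sh_3232 replicate 2 (0.0535), Brg1sh_3364 replicate 1 (0.0561) or 2 (0.0552), and Tnfaip3 without any array of these 2 hairpins (0.0507 to 0.1). Il18 lost it without any array except Brg1sh_3232 replicate 1 (0.0537 to 0.234), and Il1r2 without any except Rluc replicate 1 or 3 (0.0613 to 0.209). Of 17 macrophage and monocyte genes 4 were lower with Brg1sh_3364 and none was higher, and of 11 neutrophil genes 4 were higher and none was lower, with neutrophil sums of 74311 to 74463 with Brg1sh_3364 and 60894 to 63267 with Brg1sh_3232. Their part in these differences was not tested either.

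Between Brg1sh_4935 and Brg1sh_3232, 3 members were called, where 1.02% of all genes were. Cxcl10 averaged 9.74 ± 0.14 with Brg1sh_4935 and 8.73 ± 0.25 with Brg1sh_3232 (SD, n = 2 each), a difference of 1.01 (limma adjusted p = 0.0308). Ccl2 was higher by 0.78 (adjusted p = 0.046) and Il1rn by 0.31 (adjusted p = 0.0482). Each of the 3 lost its call when any array of the 3 hairpins was left out, Ccl2 also without Rluc replicate 1 (0.0521), and Cxcl10 (0.0648) and Il1rn (0.0832) also without Rluc replicate 2, with adjusted p up to 0.288. An unadjusted p below 0.05 was reached by 14 members in this comparison (35.9%), against 14.6% of all genes. Here 4 of 15 interferon response genes were higher with Brg1sh_4935 and none was lower, and 2 of 17 macrophage and monocyte genes were higher and none lower. The interferon response sums were 11071 to 11113 with Brg1sh_4935 and 9018 to 9895 with Brg1sh_3232, and their part in the differences was not tested.

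**Figure D3:**
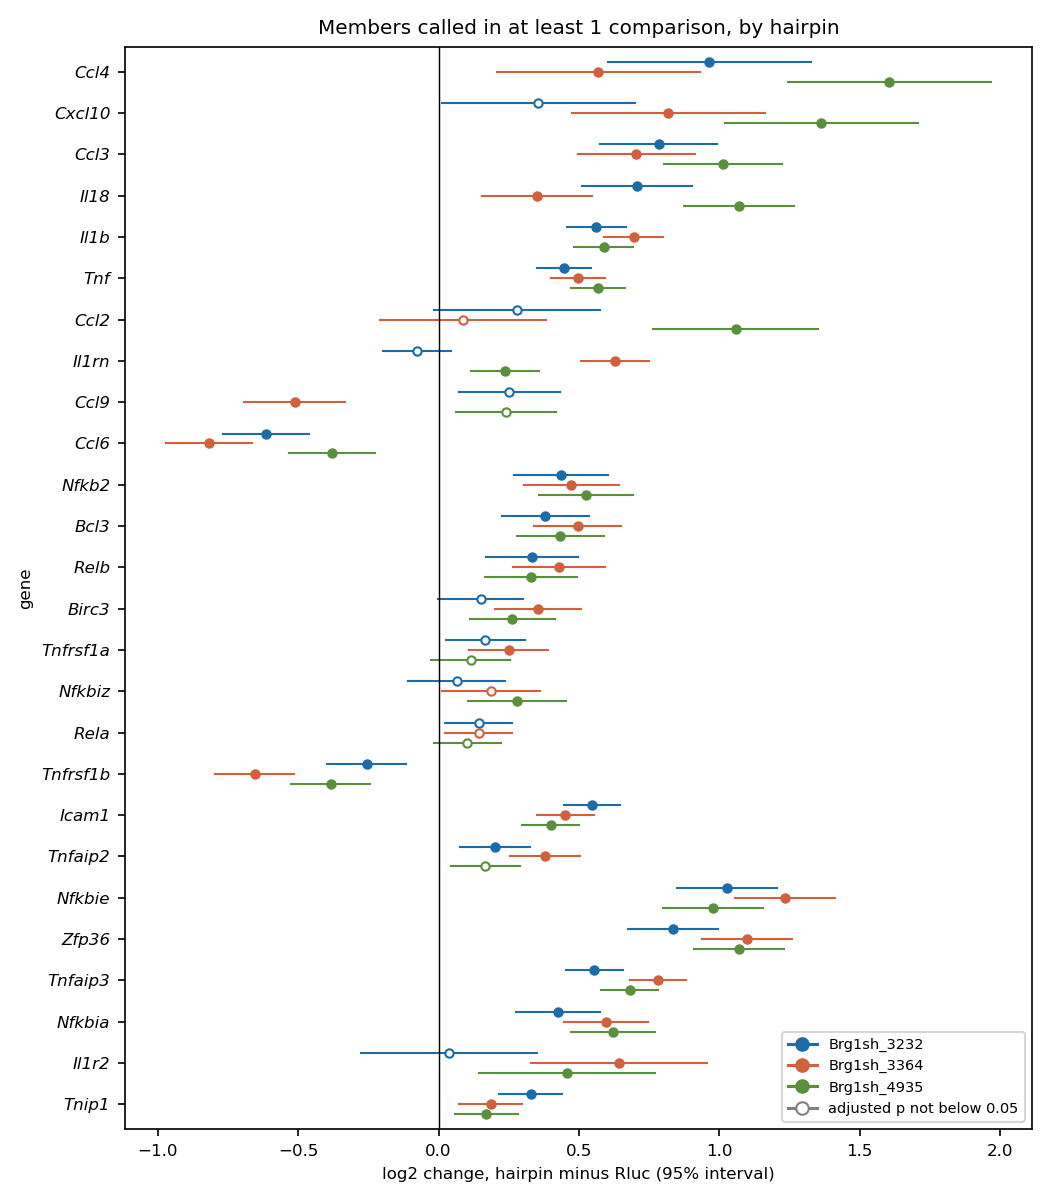
Log2 change of each hairpin minus Rluc with its 95% interval, for the members called in at least 1 comparison with Rluc, ordered by role. Filled points have an adjusted p below 0.05. The intervals of the 3 hairpins lie close together for Tnf, Nfkb2, Bcl3 and Relb and far apart for Ccl4, Cxcl10, Ccl2, Il1rn and Ccl9.

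Other genes of the pathway were described from lists that hold no member. Among all genes 13.3% rose and 15.0% fell in the mean of the hairpins. Of 36 measured genes of upstream signalling, 15 rose and 3 fell in that mean, with a median log2 change of 0.05. The receptor gene Il6ra had 11.43 and 11.51 with Brg1sh_3232, 11.09 and 11.17 with Brg1sh_3364 and 11.31 and 11.40 with Brg1sh_4935, against 10.37, 10.49 and 10.48 with Rluc. Its knockdown arrays lay well above Rluc, and Il6ra rose by 0.87 in log2 level (SE 0.04, adjusted p = 2.59e-06). Il6st, the signal-transducing partner of that receptor, rose by 0.82 (SE 0.08, adjusted p = 6.01e-05). Map3k14, the kinase of the non-canonical branch that acts on the Nfkb2 product, rose by 0.61 (SE 0.07, adjusted p = 0.000142), and Irak2, a kinase below IL-1 and Toll-like receptors, by 0.46 (SE 0.05, adjusted p = 0.000144). Both Il6 receptor chains thus rose while the Il6 ligand gene was not called. The mean log2 level of Il6 ranked at percentile 0.76 of all genes, and whether its probe set was above background is not known.

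Of the 8 genes of the machinery that matures and releases IL-1, 4 rose and 2 fell, where 13.3% of all genes rose and 15.0% fell. Nlrc4, an inflammasome sensor, fell by 0.44 (adjusted p = 0.000567), while Gsdmd, the pore former through which mature IL-1 leaves the cell, rose by 0.32 (adjusted p = 0.00278). Nlrp1b, another sensor, rose by 0.32 (adjusted p = 0.00622) and the adaptor gene Pycard by 0.14 (adjusted p = 0.0144). Of 8 genes for the decay of cytokine messenger RNA other than Zfp36, 2 rose and 1 fell, where 28.3% of all genes were called. With so few genes that list is not set apart from the share over all genes. Its relative Zfp36l2 rose by 0.35 (adjusted p = 0.000817) and the RNase gene Zc3h12a by 0.31 (adjusted p = 0.00113). Khsrp, a decay-promoting RNA-binding protein gene, fell by 0.13 (adjusted p = 0.0488), and Rc3h1 had 0.13 (adjusted p = 0.0818).

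Of 34 further NF-kB targets, 13 rose and 3 fell, with a median log2 change of 0.03, where 13.3% of all genes rose and 15.0% fell. Nfkbid, the gene of one more nuclear IkB protein, had 10.19 and 10.38 with Brg1sh_3232, 10.56 and 10.55 with Brg1sh_3364 and 10.52 and 10.54 with Brg1sh_4935, against 9.59, 9.78 and 9.83 with Rluc. Its groups did not overlap, and Nfkbid rose by 0.73 in log2 level (SE 0.06, adjusted p = 3.41e-05). Ebi3, a subunit gene of heterodimeric cytokines of the IL-12 family, rose by 0.67 (adjusted p = 6.31e-05), the survival gene Bcl2l1 by 0.45 (adjusted p = 2.9e-05) and Plaur, the urokinase receptor gene, by 0.42 (adjusted p = 3.77e-05).

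**Figure D4:**
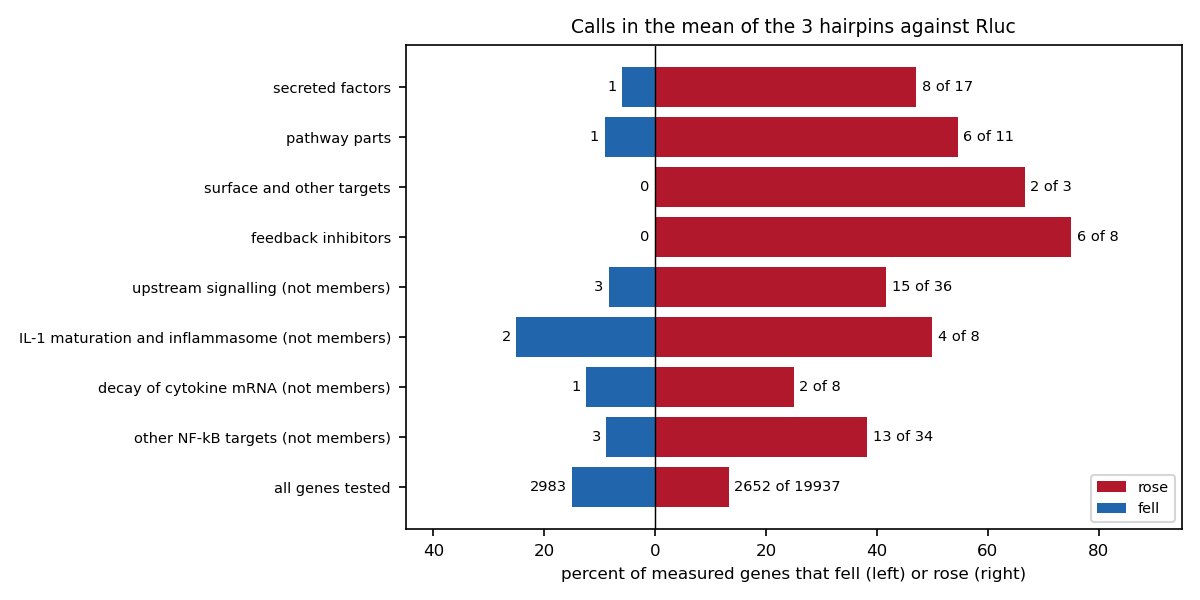
Percent of measured genes that fell (left) and rose (right) in the mean of the 3 hairpins against Rluc, for the 4 roles of the members, 4 lists of pathway genes that are not members and all 19937 genes, with counts at the bar ends. Bars for rises exceed that of all genes (13.3%) in each list and reach furthest for the feedback inhibitors, 6 of 8. The bar for decay of cytokine mRNA rests on 2 of 8 genes.

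Markers of myeloid maturation were set beside these values, where 13.3% of all genes rose and 15.0% fell in the mean of the hairpins. Summed levels of the macrophage and monocyte list lay apart between knockdown and Rluc arrays, while those of the neutrophil list overlapped. Of 17 measured macrophage and monocyte genes 11 rose, 1 fell and 5 were not called. Their summed linear level was 36278 to 44513 in the 6 knockdown arrays and 26856 to 28346 in the 3 Rluc arrays. Their mean log2 level, in which each gene weighs the same, was 8.94 to 9.39 in knockdown arrays and 8.53 to 8.61 in Rluc arrays. Of 11 neutrophil genes 5 rose and 1 fell, with sums of 60894 to 74463 in knockdown arrays and 54197 to 66573 in Rluc arrays. Their log2 changes in the mean ran from -1.37 for Camp to 1.84 for Mmp8. Of 14 genes of myeloid leukaemia identity 6 rose and 6 fell, with mean log2 levels of 12.40 to 12.59 in knockdown arrays and 12.47 to 12.57 in Rluc arrays. The 4 measured B cell genes had sums of 281 to 298 in knockdown arrays and 278 to 286 in Rluc arrays, with none called. Macrophages express many of the members, including Tnf, Il1b, Ccl3 and Ccl4, and the part of these marker changes in the member values was not tested. In bulk RNA a change in the number of cells of a type and a change in RNA per cell cannot be told apart.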

How the data were processed

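The authors deposited 1 column of log2 expression for each array, with RMA named per the submitters' processing notes. Its version is not given in the sources used here, nor is the genome build. Neither scanner files nor detection calls were used. The table has 34760 probe sets. Of these 21640 had 1 gene symbol in the platform annotation, 1321 had several and 11799 had none. For 954 genes with more than 1 probe set the one of highest mean was kept, giving 19937 genes with no filter on dim genes. Array pairs correlated at 0.996 to 0.997 within a group and 0.989 to 0.994 between hairpin and Rluc arrays, and no pair was the same throughout. Each pair did share 1239 to 1906 equal values. Some members had the same value in both arrays of a hairpin, such as Icam1 and Nfkbie with Brg1sh_4935 (SD 0). Such repeats lower the spread within groups from which the SEs come.

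A model with 1 mean per group was fitted to the 9 arrays with limma 3.58.1 (lmFit and eBayes) in R 4.3.3, with 5 residual and 3.85 prior degrees of freedom. Contrasts were the equally weighted mean of the 3 hairpins minus Rluc, each hairpin minus Rluc, each pair of hairpins, and an F test among hairpins. Tests were two-sided, with Benjamini-Hochberg adjustment over all genes, and calls were made at an adjusted p below 0.05. The fit was tested on simulated data. Summed levels add the values after raising 2 to the log2 level, so the brightest probe sets weigh most in them. Alternatives varied scaling, filter, features tested, variance model, array weights, replicate block, samples, hairpins and threshold.

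Described genes were all 40 members, Smarca4, and from each list of other pathway genes up to 4 with the smallest p. The members and all lists were chosen with earlier results of these data known.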

Additional observations from a re-analysis of the deposited data

Results flagged for a closer look

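For 9 members the level differed among the 3 hairpins by limma's F test over the 3 groups of 2 arrays. The adjusted p was 0.000743 for Il1rn, the secreted receptor antagonist, and 0.00141 for the chemokine Ccl9, and both were kept without each of the 9 arrays, at most 0.0121 and 0.0233. It was 0.00524 for Il18, 0.0547 without Brg1sh_3364 replicate 1. It was 0.00657 for Ccl2, 0.0707 without Brg1sh_4935 replicate 2.

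For Cxcl10 it was 0.014, lost without Brg1sh_3232 replicate 1 (0.069), Brg1sh_3364 replicate 1 (0.0534) or 2 (0.0528), or Brg1sh_4935 replicate 1 (0.0586) or 2 (0.0979). For Ccl4 it was 0.0153, lost without Brg1sh_3364 replicate 1 (0.0807) or 2 (0.0873), or Brg1sh_4935 replicate 1 (0.0965) or 2 (0.0949). For Ccl6 it was 0.0159, lost without Brg1sh_3364 replicate 2 (0.0853) or Brg1sh_4935 replicate 1 (0.0717) or 2 (0.0964).

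For Tnfrsf1b it was 0.0152, lost without Brg1sh_3232 replicate 2 (0.055) or Brg1sh_3364 replicate 1 (0.0991) or 2 (0.0959). For Tnfaip3 it was 0.0418, lost without any 1 of the 6 knockdown arrays (0.0816 to 0.153). The Tnfaip3 call was also lost in 5 of 8 other alternatives (a further quantile normalization, median centring, every row tested, a trended robust eBayes and the replicate block, up to 0.0918). With every row of the deposited table tested, Ccl4 (0.0684), Ccl6 (0.0621), Cxcl10 (0.0643) and Tnfrsf1b (0.0577) lost theirs, and no other alternative of these 8 ended the call of these 4. Groups of 2 or 3 arrays are too small for a test of single arrays that stand apart.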

How the results depend on the processing

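Of 24 members called in the mean of the hairpins, 16 kept direction and call under every alternative run: Tnf, Il1b, Il18, Ccl3, Ccl4, Ccl6, Nfkb2, Relb, Tnfrsf1b, Bcl3, Icam1, Nfkbia, Nfkbie, Tnfaip3, Tnip1 and Zfp36. The same held for 13 of 17 with Brg1sh_3232, 18 of 23 with Brg1sh_3364 and 16 of 22 with Brg1sh_4935. Over 1979 single values of the 26 members called against Rluc at least once, 1804 kept direction and side of the threshold, 135 lost the call, 26 gained one and 14 changed sign. With hairpin means as 3 replicates the calls of Il1rn (0.394), Ccl2 (0.317), Cxcl10 (0.0815), Rela (0.13), Tnfrsf1a (0.107), Tnfaip2 (0.0631) and Il1r2 (0.263) were lost.

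With the hairpin as a random block 14 members rose in the mean. For this and every other count of members under an alternative, the share of all genes that rose or fell in that setting is not given. A changed count therefore cannot be read as a result about the members. The 2 falls with Brg1sh_3232 became 1 with every row of the deposited table tested, with only the arrays of Brg1sh_3232 and Rluc, and at a threshold of 0.01. The 3 falls with Brg1sh_3364 became 5 with arrays centred on their medians. At 0.01, calls between Brg1sh_3364 and Brg1sh_3232 became 3, between Brg1sh_4935 and Brg1sh_3232 0, and by the F test 4. With every row tested they became 0 between Brg1sh_4935 and Brg1sh_3232 (14 members at an unadjusted p below 0.05 in limma) and 4 by the F test.

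Leaving out 1 array at a time gave 19 to 23 rises and 2 falls in the mean, 13 to 16 rises and 1 to 2 falls with Brg1sh_3232, 16 to 20 and 3 to 4 with Brg1sh_3364, and 14 to 19 and 2 with Brg1sh_4935. It gave 2 to 6 calls between Brg1sh_3364 and Brg1sh_3232, 0 to 3 between Brg1sh_4935 and Brg1sh_3232 (at least 6 members at an unadjusted p below 0.05), 3 to 9 between Brg1sh_4935 and Brg1sh_3364, and 4 to 11 by the F test.

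Values that changed sign had adjusted p of 0.587 or more in the alternative, with 1 exception. Ccl9 in the mean was 0.25 without Brg1sh_3364 (adjusted p = 0.0178), 0.0021 after a further quantile normalization, 0.020 with array weights, 0.026 with the replicate block and -0.070 to 0.029 with 1 array left out. With 1 array left out, Ccl2 with Brg1sh_3364 ranged over -0.027 to 0.22, negative without Rluc replicate 2. Likewise Nfkbiz with Brg1sh_3232 ranged over -0.010 to 0.14, negative without Brg1sh_3232 replicate 2 or Rluc replicate 1. Il1r2 with Brg1sh_3232 was -0.11 with the replicate block and -0.11 to 0.18 with 1 array left out, negative without Rluc replicate 3 or Brg1sh_3232 replicate 2. Only Rluc has a replicate 3, so the replicate block gives that array no weight. The block and the fit without Rluc replicate 3 thus give the same change and are not separate checks of it. The cause of the sign changes was not tested.

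Over 12 pairs of same-numbered arrays, deviations from group means correlated at -0.07 to 0.25, above 0.1 in 2. These 2 were Brg1sh_3232 with Rluc, replicate 1 (0.19) and replicate 2 (0.25). In groups of 2 arrays the deviations mirror each other, so the pairs are not independent. They do not settle whether same-numbered arrays were handled together. With the replicate block, Ccl2 and Cxcl10 gained a call with Brg1sh_3232 (limma adjusted p = 0.0307 and 0.0445). With the replicate block 20 members rose and 2 fell in the mean, 10 differed by the F test, and 16, 18 and 19 rose with Brg1sh_3232, Brg1sh_3364 and Brg1sh_4935. Centring moved the share of rises among all called genes with Brg1sh_4935 to 31.6%, against 44.3% as deposited, while 17 members rose and 2 fell. Signal over background is unknown without detection calls, which limits what the dimmest members can show.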
